A study of Mus musculus with 6 samples.

Results

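The STAT family of transcription factors was examined by RNA-seq in bone marrow mesenchymal stem cells (BMMSCs), the adherent cells grown out of mouse bone marrow. The members were taken by gene symbol and comprised Stat2, Stat3, Stat4, Stat5a, Stat5b and Stat6, 6 of the 36845 distinct symbols in the deposited table, and all 6 were expressed highly enough to be tested. The cells came from C57BL/6 mice, at passage 2 by the sample labels, whereas the methods give an earlier passage for mouse BMMSCs. The 3 control libraries were compared with 3 libraries from cells given siRNAs against both Tet1 and Tet2, the enzymes that oxidise 5-methylcytosine. The labels describe the control as a non-targeting siRNA, as the siRNA methods do, whereas the sequencing methods call it vehicle. The age of the mice is not stated there, and whether the 3 libraries of a group came from separate animals or cultures is not stated either, so that p-values measure the spread between these libraries, which may be technical.

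STAT proteins wait in the cytoplasm until a cytokine binds its receptor. JAK kinases bound to the receptor then phosphorylate them, the STATs pair through their SH2 domains, enter the nucleus and switch on genes. Type I interferon works through Stat2, which joins Irf9 in the complex ISGF3. Stat3 serves the interleukin-6 family, Stat4 interleukin-12, Stat5a and Stat5b growth hormone, prolactin and GM-CSF, and Stat6 interleukin-4 and interleukin-13. In marrow, STATs act in stromal cells and in blood cells alike, and Stat3 is known for a role in bone formation.

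The genes lie in a few clusters of the mouse genome (GENCODE M21, GRCm38). Stat2 occupies chr10:128270559-128292849 and Stat6 chr10:127642986-127660957, both on the plus strand. Stat5b (chr11:100780731-100850724, minus strand), Stat5a (chr11:100859351-100885169, plus strand) and Stat3 (chr11:100885098-100939540, minus strand) follow each other, and Stat4 lies at chr1:51987148-52107189 on the plus strand. Stat5a and Stat3 run towards each other, and their annotated ends overlap by 72 bases. Stat6 overlaps the opposite gene Nab2 by 40 bases. Both overlaps are shorter than a read of 100 bases, so a full read that reaches into them also covers bases outside them. The use of strand in counting is not given, and how such reads were counted is not known. Stat5a and Stat5b are near-identical copies in part, and 265 stretches of 100 bases, the length of a read, occur in transcripts of both. They make up 3.44% of the stretches of Stat5a and 4.79% of those of Stat5b, whereas the other pairs of members shared 0 stretches.

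Promoters of 300 bases, from 250 bases before to 50 bases after the start site, were read from RefSeq (GRCm38.p6) for all 6 members, 9 promoters in all because some genes have a further start site. They were searched on both strands for the interferon-stimulated response element that ISGF3 binds, TTTC, any 2 bases and TTTC, and for the gamma-activated site that STAT pairs bind, TTCNNNGAA. Since the members held no match to the latter, no matches overlapped. The promoters of the members with the highest levels are shown because the levels described next differ most between Stat2 and the others. Capitals mark a match to the response element.
Stat2 promoter, chr10:128270248-128270547, plus strand: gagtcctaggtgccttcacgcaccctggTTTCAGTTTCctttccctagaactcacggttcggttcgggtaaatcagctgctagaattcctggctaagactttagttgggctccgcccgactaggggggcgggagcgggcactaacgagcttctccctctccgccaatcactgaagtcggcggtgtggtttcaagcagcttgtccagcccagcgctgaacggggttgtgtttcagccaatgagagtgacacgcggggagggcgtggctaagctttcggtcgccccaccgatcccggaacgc
Stat6 promoter, chr10:127642736-127643035, plus strand: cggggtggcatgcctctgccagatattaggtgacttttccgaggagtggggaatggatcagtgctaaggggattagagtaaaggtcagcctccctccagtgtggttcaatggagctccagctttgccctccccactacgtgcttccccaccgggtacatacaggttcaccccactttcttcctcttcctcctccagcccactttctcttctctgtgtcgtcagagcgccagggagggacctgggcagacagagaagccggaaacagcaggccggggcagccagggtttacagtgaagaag
Stat3 promoter, chr11:100939491-100939790, minus strand: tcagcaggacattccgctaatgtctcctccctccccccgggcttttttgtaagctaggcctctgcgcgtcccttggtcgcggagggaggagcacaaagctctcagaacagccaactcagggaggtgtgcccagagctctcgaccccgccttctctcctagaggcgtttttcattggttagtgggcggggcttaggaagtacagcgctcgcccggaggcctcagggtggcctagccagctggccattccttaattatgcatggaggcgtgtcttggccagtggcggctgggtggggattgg

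The Stat2 promoter held 1 match to the response element, TTTCAGTTTC, beginning 222 bases upstream of the start site. No match was found in the promoters of Stat3 and Stat6 or in those of Stat5a and Stat5b (0 matches). The second start site of Stat4 had 1 match, GAAAGTGAAA on the opposite strand, 97 bases upstream. Of all 32851 mouse promoters of this length, 3.44% held a match, and 2 of the 9 promoters of the members did. The gamma-activated site was found in 0 of the 9 promoters and in 8.30% of all promoters. A match is a string of letters and not a measured binding site.

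The promoters also differed in CpG, the dinucleotide whose cytosine Tet enzymes act on. Stat2 had 22 CpGs, Stat3 had 15 and Stat6 had 8, against a median of 7 over all promoters. The highest count, 50 CpGs, stood in the upstream promoter of Stat5b, above 99.2% of all promoters by percentile rank. Stat4 had 2 and 4. Methylation was not measured in these libraries. For the Stat5 pair, 1 promoter each is shown because these share the longest identical run between promoters of different members, the 16 bases aggaaatcgctgctct.
Stat5a promoter, chr11:100860234-100860533, plus strand: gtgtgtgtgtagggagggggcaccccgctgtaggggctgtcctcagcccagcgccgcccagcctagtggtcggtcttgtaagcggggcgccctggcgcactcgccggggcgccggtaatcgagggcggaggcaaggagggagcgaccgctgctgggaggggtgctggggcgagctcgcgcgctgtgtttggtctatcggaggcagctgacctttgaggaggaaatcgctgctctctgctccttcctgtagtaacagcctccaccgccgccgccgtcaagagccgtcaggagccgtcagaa
Stat5b promoter, chr11:100822521-100822820, minus strand: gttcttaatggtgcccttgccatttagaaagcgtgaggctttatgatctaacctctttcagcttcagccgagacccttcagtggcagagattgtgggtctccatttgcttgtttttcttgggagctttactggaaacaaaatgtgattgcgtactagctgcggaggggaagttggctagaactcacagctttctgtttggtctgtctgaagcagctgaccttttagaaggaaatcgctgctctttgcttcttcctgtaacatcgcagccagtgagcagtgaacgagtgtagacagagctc

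Levels are given in RPKM, read numbers adjusted for gene length and sequencing depth, so that levels of different genes can be set side by side. The table gives no read totals. From the steps between low values, the depth was estimated at 32400000 to 38500000 reads a library. It was the depth, of those tried, that put the largest share of low values within 0.1 of a whole read. That share came to 52.5% to 58.8%. A depth fixed in advance would give 20% by chance, a figure that does not apply to the best of many depths. The share is therefore no test of the estimate. Libraries of 1 group correlated with r between 0.992 and 0.997 across the 13249 genes tested. Control replicates 1 to 3 had 2.57, 4.08 and 3.71 RPKM of Tet2, the siRNA replicates had 0.358, 0.238 and 0.202 RPKM, and Tet1 was below 0.1 RPKM in all 6. Groups were compared with limma on log2(RPKM + 1), a scale that understates the change of low genes, and p-values were adjusted over all genes tested.

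Besides stromal RNA, the cultures held much macrophage RNA, and both moved with the treatment. At an adjusted p under 0.05 from limma, 29.8% of all genes tested were lower in the siRNA libraries and 14.7% were higher. Of 16 stromal markers, 14 were tested and 12 were lower in the siRNA libraries. Their summed levels were 1170 to 1687 RPKM in the controls and 148.5 to 301.6 RPKM in the siRNA group. Of 16 macrophage markers, 9 were higher and 3 were lower, and their summed level was 8874 to 11320 RPKM in the controls and 16770 to 20230 RPKM in the siRNA group. Most of that rise was Lyz2, at 4439 RPKM on average in the controls and 11320 RPKM in the siRNA group. Ctss, the next most abundant in the controls, was at 2051 and 2084 RPKM, and the 3 lower markers were Fcgr1, Fcer1g and Aif1. Thy1 and Lum, both stromal markers, were near 0, at 0.061 and 0.0107 RPKM in the controls. Ptprc, the gene of CD45, was at 52.6 RPKM in the controls and 53.0 RPKM in the siRNA libraries. In bulk RNA, fewer cells of a type and less RNA per cell cannot be told apart, and the part of these markers in the STAT results was not tested.

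Of the 6 members, 2 were lower in the Tet1/Tet2 siRNA libraries with an adjusted p under 0.05, Stat2 and Stat3, where 29.8% of all genes tested were lower and 44.5% passed in either direction. By the same test in limma, 0 members were higher, against 14.7% of all genes. At an unadjusted p under 0.05, 1 member was higher, Stat5a, where 6929 of the 13249 genes tested passed in either direction. With the thresholds of the study, an unadjusted p under 0.05 and a change over 2-fold, 1 member was altered and lower, Stat2, where 5.62% of all genes were, and 6.57% of all genes were altered in either direction. No member was altered and higher (0 of 6, against 0.951% of all genes). Over all genes tested, log2 fold changes had a median of -0.09.

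Stat2, the STAT of type I interferon, was the most abundant of the 6 in the controls and fell the most. Its levels were 77.4, 85.6 and 87.6 RPKM in the control libraries and 17.0, 19.0 and 18.8 RPKM in the siRNA libraries. The groups lay far apart, and the spread within each was small. The means were 83.5 ± 5.39 RPKM and 18.3 ± 1.08 RPKM (SD, n = 3 each), so that 21.9% of the control level was left, a 4.57-fold difference. The log2 fold change was -2.13 (standard error 0.07, 95% interval -2.30 to -1.97, adjusted p = 6.66e-07 from limma). By p, Stat2 ranked 25 of 13249 genes, and 140 by the size of the decrease. Among all genes tested its level went from rank 871 in the controls to rank 3932 in the siRNA group.

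Stat3, which relays interleukin-6, leukemia inhibitory factor and oncostatin M, fell by a smaller amount. The control libraries had 39.9, 39.8 and 43.5 RPKM, the siRNA libraries 28.1, 28.3 and 29.5 RPKM. Each siRNA library was below each control library, as for Stat2 and for 35.9% of all genes tested. The means were 41.1 ± 2.10 RPKM (SD, n = 3) and 28.6 ± 0.746 RPKM (SD, n = 3), and 69.6% of the control level was left. The log2 fold change was -0.51 (standard error 0.06, 95% interval -0.65 to -0.37, adjusted p = 0.000309 from limma). By the size of the decrease it ranked 1843.

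Stat5a and Stat5b, the closely related STATs of growth hormone, prolactin and the GM-CSF receptor, lay somewhat higher in the siRNA libraries, and neither passed the test. Stat5a was at 6.13, 6.21 and 6.26 RPKM in the controls and at 7.29, 6.90 and 7.65 RPKM in the siRNA group. Its log2 fold change was 0.20 (standard error 0.08, 95% interval 0.02 to 0.38, adjusted p = 0.0661 from limma). The groups did not overlap, which held for 55.6% of all genes tested in either direction and for 19.8% in the direction of Stat5a.

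Stat5b was at 13.02, 13.1 and 13.7 RPKM in the controls and at 13.8, 14.2 and 14.9 RPKM in the siRNA group. The lowest siRNA library stood just above the highest control library. The log2 fold change of 0.10 had a 95% interval from -0.05 to 0.26 (adjusted p = 0.25 from limma). Within a library there was 2.10 to 2.19 times as much Stat5b as Stat5a RPKM in the controls and 1.89 to 2.06 times as much in the siRNA group.

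Stat6, the STAT of interleukin-4 and interleukin-13, was abundant in both groups. It was at 71.1, 67.6 and 67.7 RPKM in the controls and at 71.0, 75.4 and 72.3 RPKM in the siRNA libraries. The groups overlapped, since control replicate 1 stood above siRNA replicate 1. The log2 fold change was 0.08 with a 95% interval from -0.05 to 0.21 (adjusted p = 0.262 from limma), an interval that leaves out a decrease of the size seen for Stat3. Its level ranked 1090 in the controls and 956 in the siRNA group.

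Stat4, which serves interleukin-12 in T and NK cells and some myeloid cells, was close to the detection limit. It was at 0.096, 0.065 and 0.3 RPKM in the controls, or about 10.6, 6.4 and 29.0 reads by the estimated depth, and at 0.131, 0.102 and 0.102 RPKM after siRNA, or some 15.0, 11.7 and 10.7 reads. Control replicate 3 stood above the rest, and the groups overlapped. The log2 fold change of -0.05 (95% interval -0.24 to 0.14, adjusted p = 0.666 from limma) became 0.04 without that library, so the data give it no direction. Of 12 markers of T and NK cells, 3 were at the lowest listed value of 0.001 RPKM in all 6 libraries, Cd3g, Trac and Ncr1. Their summed level was 2.61 to 2.93 RPKM in the controls and 7.81 to 8.93 RPKM in the siRNA group, nearly all of it Cd4, at 2.56 and 8.06 RPKM on average.

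**Figure D1:**
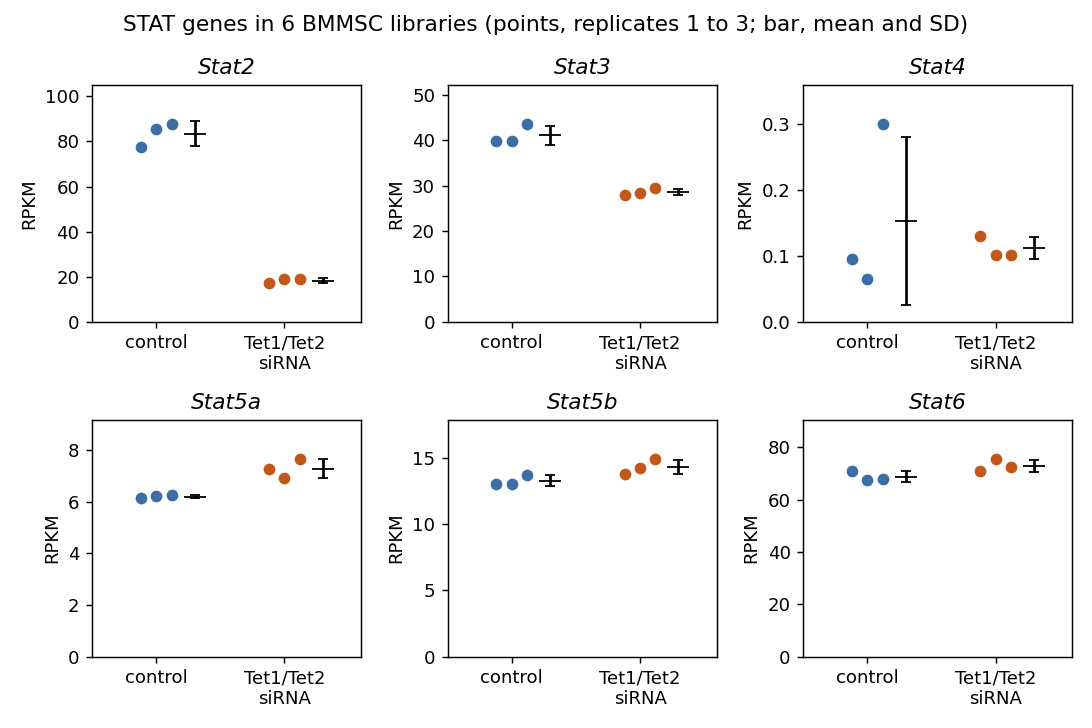
Levels of the 6 STAT genes in RPKM on linear axes from 0, 1 panel a gene, with the 3 control libraries in blue and the 3 Tet1/Tet2 siRNA libraries in orange, and the mean and SD in black beside them. Stat2 drops from 83.5 to 18.3 RPKM and Stat3 from 41.1 to 28.6 RPKM, while Stat5a, Stat5b and Stat6 lie slightly higher without passing the test and Stat4 stays near 0.1 RPKM apart from control replicate 3.

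The order of the levels changed between the groups. In the controls it ran Stat2, Stat6, Stat3, Stat5b, Stat5a and Stat4, and in the siRNA libraries Stat6, Stat3, Stat2, Stat5b, Stat5a and Stat4. No neighbours in either order overlapped in their 3 libraries. The closest pair in the controls was Stat2 with Stat6, whose means differed by 1.22 times. In the siRNA group it was Stat2 with Stat5b, at 1.28 times.

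As a share of the summed RPKM of these 6 genes, Stat2 made up 37.3%, 40.3% and 40.0% in the controls and 12.4%, 13.2% and 13.1% in the siRNA libraries. The share of Stat6 went from 32.3% ± 1.72 (SD, n = 3) to 51.5% ± 0.970 (SD, n = 3). Stat3 held its share, at 19.3% ± 0.555 in the controls and 20.2% ± 0.492 in the siRNA group (SD, n = 3 each). The sum itself was lower, at 213.0 RPKM in the controls and 141.5 RPKM in the siRNA group on average.

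**Figure D2:**
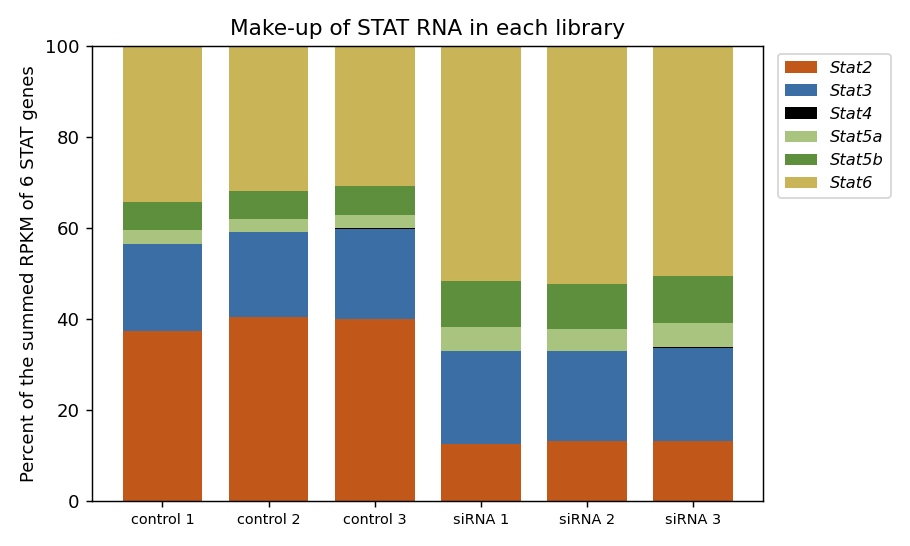
Share of each of the 6 genes in their summed RPKM, in percent, for each of the 6 libraries as stacked bars. Stat2 takes 37.3% to 40.3% of the control bars and 12.4% to 13.2% of the siRNA bars, and Stat6 makes up the largest part of each siRNA bar.

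Stat2 was set against each other member within each library, a ratio that the scaling of the libraries cannot change. Stat2 to Stat3 was 1.94, 2.15 and 2.01 in the controls and 0.607, 0.671 and 0.638 in the siRNA libraries, a 3.18-fold fall. Stat2 to Stat6 was 1.09, 1.27 and 1.29 in the controls and 0.240, 0.252 and 0.260 in the siRNA libraries, a 4.84-fold fall. The ratio to Stat5a fell 5.36-fold and that to Stat5b fell 4.92-fold. The ratio to Stat4 fell 4.09-fold but rests on few reads. In all 5 ratios the 3 siRNA libraries lay below the 3 control libraries, and the two-sided exact permutation test gave p = 0.1 for each, before and after adjustment over the 5 ratios, which is the smallest p that 3 against 3 libraries allow. The 95% intervals of the log2 fold changes of Stat2 and Stat3, given above, do not overlap.

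How the libraries are scaled mattered for the smaller values. Scaling by the median ratio moved the median over all genes from a log2 fold change of -0.09 to 0.00, and quantile normalization to 0.06, which is a shift of over 0.1. Stat5a, Stat5b and Stat6 then reached log2 fold changes of 0.30, 0.21 and 0.20 with the median ratio and 0.36, 0.24 and 0.16 with quantile normalization, each with an adjusted p under 0.05, and 5 of 6 members were called, 2 lower and 3 higher. The calls over all genes shifted as well, from 66.9% lower to 50.9% and 42.1% lower. Of the 13249 genes tested, 2955 were lower and 2850 higher with the median ratio. With quantile normalization 2622 were lower and 3599 higher. Stat2 and Stat3 were lower under every scaling tried.

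**Figure D3:**
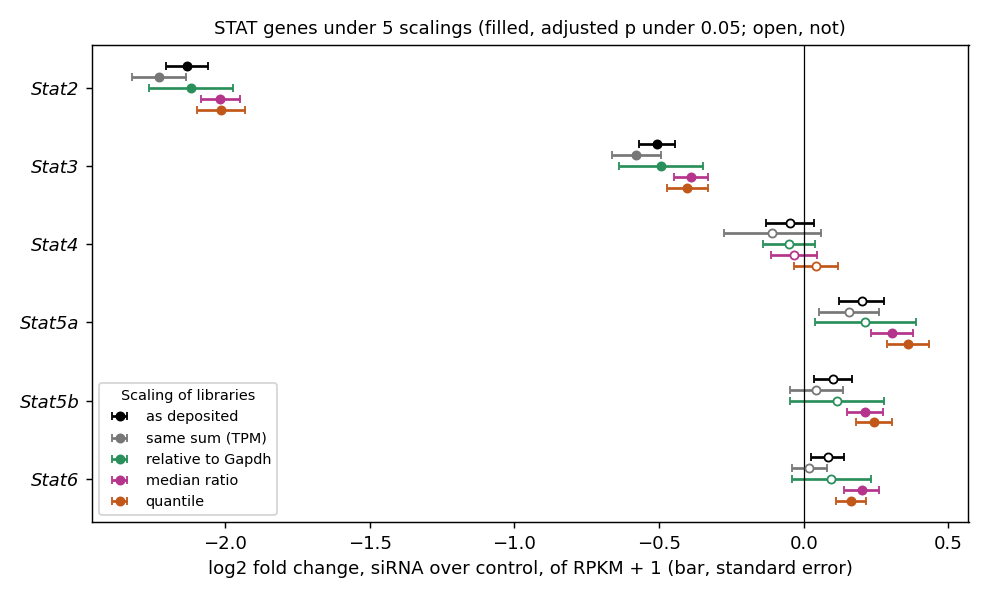
Log2 fold change of RPKM + 1 (siRNA over control) with its standard error for each STAT gene under 5 scalings of the libraries; filled points have an adjusted p under 0.05 from limma. Stat2 and Stat3 stay left of 0 with filled points, Stat5a, Stat5b and Stat6 stay right of 0 and fill only under the median ratio and quantile scalings, and Stat4 crosses 0 under quantile normalization.

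The genes upstream of the STATs moved in both directions. Of 25 cytokine ligands listed, 11 were expressed highly enough to be tested, 5 were lower and 1 was higher, and the median log2 fold change was -0.40. With quantile normalization 5 were lower and 3 were higher, at a median of -0.17. As deposited, 45.5% of those tested were lower and 9.09% higher, against 29.8% and 14.7% of all genes tested. Il6, the classic ligand of the Stat3 route, was at 2.99, 2.76 and 2.63 RPKM in the controls and at 0.072, 0.451 and 0.001 RPKM after siRNA (adjusted p = 4.04e-05 from limma). The siRNA libraries held next to no Il6. Il10, another ligand that uses Stat3, fell from 2.13 to 0.929 RPKM, and Il27 from 0.770 to 0.185 RPKM on average. The 1 higher ligand was Osm, the gene of oncostatin M, which also uses Stat3. It was at 2.05 RPKM in the controls and 2.91 RPKM in the siRNA group (adjusted p = 0.0187 from limma, under 0.05 in 12 of 18 alternatives). Ifnb1, the gene of interferon beta, was too low to be tested, at 0.133 RPKM on average in the controls and 0.012 RPKM in the siRNA group, and Il4, Il13, Il12a and Il12b were at or near the lowest listed value.

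Of 34 receptors and JAK kinases listed, 29 were tested, 10 were lower and 9 were higher, and the median log2 fold change was -0.03. That median was 0.09 with the median ratio and 0.08 with quantile normalization. The calls came to 34.5% lower and 31% higher of the genes tested, where 29.8% and 14.7% of all genes were. Jak2, the kinase of growth hormone and interleukin-6 family receptors, was at 15.0, 16.9 and 19.3 RPKM in the controls and at 8.79, 8.80 and 10.5 RPKM in the siRNA libraries, a log2 fold change of -0.80 (adjusted p = 0.000572 from limma). Jak1 was at 63.3 and 70.2 RPKM on average, Tyk2 at 15.6 and 16.9 RPKM and Jak3 at 9.96 and 8.21 RPKM, and none of these 3 passed the test. Jak1 passed as higher with the median ratio, with quantile normalization and without control replicate 3, Tyk2 passed as higher with quantile normalization, and Jak3 passed as lower with the replicate block.

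Among receptors, the 3 with the lowest p were Osmr, Il21r and Csf3r. Osmr, the oncostatin M receptor that activates Stat3, fell from 6.95 ± 0.765 to 1.06 ± 0.160 RPKM, and Il21r from 12.7 ± 0.875 to 4.97 ± 0.436 RPKM (SD, n = 3 each). Csf3r, the receptor of G-CSF, rose from 6.92 ± 0.0925 to 15.0 ± 1.15 RPKM. Csf3r is itself 1 of the 3 tested neutrophil markers, of which S100a8 was also higher and Camp was lower.

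The receptors in this paragraph were picked by their partner STAT after their values were seen. The shared beta chain of GM-CSF signalling to Stat5, Csf2rb, rose from 70.4 to 108.4 RPKM and its partner Csf2ra from 76.1 to 126.7 RPKM, whereas Ghr, the growth hormone receptor, fell from 14.0 to 6.40 RPKM. For Stat6, Il4ra fell from 50.8 to 32.3 RPKM and Il2rg from 25.8 to 16.6 RPKM. Il13ra1, the interleukin-13 receptor chain, was at 7.23 and 7.01 RPKM (adjusted p = 0.744 from limma). For Stat3, the shared chain Il6st (gp130) fell from 31.6 to 21.6 RPKM and Il10ra rose from 12.3 to 21.7 RPKM. Lifr fell from 1.94 to 1.19 RPKM, whereas Il6ra rose from 11.5 to 15.2 RPKM and Il11ra1 from 16.1 to 22.7 RPKM. For Stat2, the interferon receptor chain Ifnar1 rose from 21.8 to 28.5 RPKM (log2 fold change 0.37, adjusted p = 0.00199 from limma), and Ifnar2 was at 109.4 and 110.4 RPKM (adjusted p = 0.89).

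Of 12 STAT partners and cofactors, all tested, 3 were lower and 1 was higher, and the median log2 fold change was -0.08, or 0.04 with the median ratio and 0.03 with quantile normalization. That is 25% lower and 8.33% higher, below the 29.8% and 14.7% of all genes tested. Irf9, which gives ISGF3 its DNA contact, was at 36.8, 38.6 and 31.0 RPKM in the controls and at 16.5, 15.9 and 14.3 RPKM in the siRNA libraries, a log2 fold change of -1.14 (adjusted p = 4.81e-05 from limma). Its groups did not overlap. Nmi, a protein that binds STATs, fell from 20.1 to 8.16 RPKM, and Arl2bp, which helps to keep Stat3 in the nucleus, from 29.9 to 18.2 RPKM. The higher gene was Mapk3, a kinase, at 82.1 and 113.3 RPKM, and the coactivators Ep300 and Crebbp did not pass.

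Inhibitors of STAT signalling are often themselves STAT targets. Of 21 listed, 20 were tested, 8 were lower and 4 were higher, and the median log2 fold change was -0.17, or -0.07 with the median ratio and -0.01 with quantile normalization. The calls came to 40% lower and 20% higher, where 29.8% and 14.7% of all genes were. The 4 higher genes as deposited were Ptpn6, Ptpn1, Sh2b3 and Socs6. Ptpn6 was at 104.2 RPKM on average in the controls and 124.7 RPKM in the siRNA group, and Ptpn1 at 60.9 and 75.4 RPKM. Sh2b3 was at 22.3 and 28.4 RPKM and Socs6 at 10.3 and 13.7 RPKM. Scaling to Gapdh left 6 lower and 0 higher (limma). Usp18, a protease that holds back the type I interferon receptor through Stat2, had the largest decrease, from 49.4, 53.2 and 45.3 RPKM in the controls to 0.805, 2.29 and 1.62 RPKM after siRNA (log2 fold change -4.33, adjusted p = 2.51e-06 from limma). Socs1 fell from 2.51 to 0.915 RPKM and Socs3 from 4.94 to 2.40 RPKM on average, with log2 fold changes of -0.87 and -0.81. Cish, an inhibitor induced by Stat5, fell from 0.780 to 0.270 RPKM (log2 fold change -0.47, adjusted p = 0.0144 from limma), and its adjusted p was 0.0541 without siRNA replicate 2 and up to 0.174 over the alternatives.

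Target genes of the STATs were read from hand-made lists, chosen with earlier results of these libraries known. Of 24 listed targets of Stat2 in ISGF3, 22 were in the table and tested (Mx1 and Mx2 were not matched), and all 22, Stat2 itself among them, were lower, with a median log2 fold change of -3.41 where the median over all genes was -0.09. Over all genes tested, 29.8% were lower. Oasl2, an antiviral protein, fell from 90.5 ± 2.07 to 7.26 ± 1.22 RPKM. Ifi44 fell from 28.3 ± 2.02 to 0.474 ± 0.230 RPKM, and Ddx58, the RNA sensor RIG-I, from 40.2 ± 1.29 to 6.50 ± 0.0712 RPKM (SD, n = 3 each). Stat2 and Irf9 showed smaller log2 fold changes than the median of this list.

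Of 22 Stat3 targets, all tested, 14 were lower and 3 were higher, and the median log2 fold change was -0.57. Called genes made up 63.6% lower and 13.6% higher, against 29.8% and 14.7% of all genes tested. The list holds Stat3 itself. Saa3, an acute-phase protein, fell from 18.4 to 1.58 RPKM and the cyclin Ccnd1 from 296.6 to 104.2 RPKM on average, and Osmr and Socs3, given above, are also in this list. The 3 higher genes were Fos, Mcl1 and Cebpb, of which 1 passed with rescaling to the same sum and 0 with scaling to Gapdh (limma), where 13 genes were lower. Fos was at 29.1 and 35.3 RPKM on average. Of 14 Stat5 targets, 12 were tested, 7 were lower and 2 were higher, and the median log2 fold change was -0.29, or -0.20 with the median ratio and -0.13 with quantile normalization, where 5 were lower and 2 were higher. As deposited, 58.3% of those tested were lower and 16.7% higher, beside the same 29.8% and 14.7% of all genes. Igf1, a target of growth hormone through Stat5b, rose from 191.6 to 354.0 RPKM, whereas Bcl2l1, a survival gene, fell from 63.1 to 38.9 RPKM.

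Of 19 Stat6 targets, 13 were tested, 5 were lower and 4 were higher, and the median log2 fold change was -0.02, or 0.06 with quantile normalization. That is 38.5% lower and 30.8% higher, where 29.8% and 14.7% of all genes were. The nuclear receptor Pparg fell from 32.5 to 19.7 RPKM and Klf4 from 7.94 to 2.72 RPKM on average. Markers of macrophages exposed to interleukin-4 went both ways. The 4 higher genes were Arg1, Chil3, Mgl2 and Clec10a, while Mrc1, the most abundant of the list, was lower, at 170.2 and 140.7 RPKM (adjusted p = 0.0327 from limma, under 0.05 in 9 of 18 alternatives), and Retnla was near the lowest listed value. Arg1 went from 1.30 to 2.59 RPKM and Chil3 from 0.373 to 1.94 RPKM, low levels beside those of the macrophage genes given earlier.

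**Figure D4:**
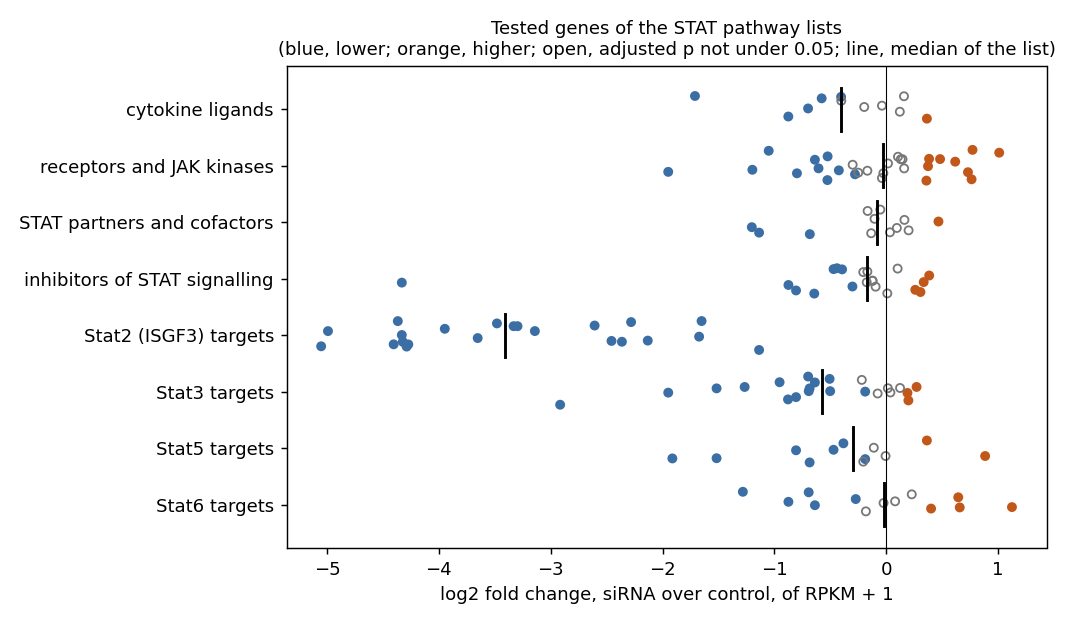
Log2 fold change of RPKM + 1 (siRNA over control) of each tested gene in 8 hand-made lists of the STAT pathway, 1 point a gene, with the list's median as a black line; blue points are lower and orange points higher with an adjusted p under 0.05 from limma, and open points did not pass. All 22 tested targets of Stat2 lie left of 0, at a median of -3.41, while the receptors and kinases spread to both sides around a median of -0.03.

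The nearest protein-coding neighbours of the members did not share 1 direction. Apof, 405 bases before Stat2, was at 0.0657 and 0.028 RPKM on average and too low to be tested. Ghdc, next to Stat5b, was at 12.5 RPKM in both groups, and Nab2, which overlaps Stat6, was at 18.9 and 18.7 RPKM. Cavin1, 17192 bases from Stat3 and listed as Ptrf, fell from 48.9 to 18.1 RPKM (log2 fold change -1.41, adjusted p = 0.000261 from limma). Cavin1 is typical of stromal cells. Lrp1, on the other side of Stat6, was at 232.0 RPKM in the controls and 334.6 RPKM in the siRNA group (adjusted p = 0.0214 from limma). It kept its call only when control replicate 3 was the library left out, with an adjusted p of 0.000273, and had 0.0503 to 0.0757 without any other library. Il23a, beyond the end of Stat2, was at 0.0157 and 0.0403 RPKM on average and too low to be tested.

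For each member, the 3 genes of at least 1 RPKM with the most similar pattern were found by the root-mean-square difference of centred log2(RPKM + 1) over the 6 libraries, a description without a test. For Stat2 they were Ifi204, H2-T24 and Siglec1, with differences of 0.0686, 0.0806 and 0.0968. Ifi204 went from 197.9 to 44.3 RPKM. For Stat3 they were Tdrd7, Fam134b and Cct8, at 0.0192 to 0.0262. For Stat5a they were Ccdc71l, Kcnk6 and Ptp4a2, for Stat5b Tm9sf2, Ehmt2 and Dnajb12, and for Stat6 Vps52, Pmp22 and Gga1, with differences of at most 0.0204. For Stat4, whose pattern is little more than the high control replicate 3, they were Fgd6, Dusp7 and Haus5.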

How the data were processed

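RNA of 6 libraries, 3 control and 3 siTet1/Tet2, was sequenced as paired-end reads of 100 bases. Adaptors were trimmed by the authors, who used GRCm38 as the genome and DNASTAR Lasergene for abundance and deposited linear RPKM values (FPKM in their methods). Annotation, strand and the handling of reads with several matches are not given in the sources used here. A column with the p-value of the authors' own comparison was not used.

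Of 36915 rows, 27 whose symbol is a number were left out, and 35 symbols listed more than once were represented by their most abundant row. Genes averaging 0.1 RPKM or more were tested with limma 3.58.1 in R 4.3.3 (lmFit, eBayes with trend) on log2(RPKM + 1), two-sided, with Benjamini-Hochberg adjustment over all 13249 genes. Ratios used log2(RPKM + 0.01) and an exact permutation test. Fold values without a log2 are ratios of group means of RPKM, and for ratios between members of geometric means. The limma step was tested on simulated data.

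The depth was estimated with Python 3.11.15 from the steps between low RPKM values, using GENCODE M21 lengths of genes that have 1 transcript. Replicate numbers are shared between groups, and deviations from the group means correlated at 0.149, 0.118 and 0.462 for numbers 1, 2 and 3. Pairs of unlike numbers ran from -0.378 to 0.332, so these values do not settle a pairing by number. Another fit took the number as a block. The labels do not say what a number stands for.

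The members, the 8 pathway lists and the 8 marker lists (stromal, macrophage, T and NK cell, B cell, neutrophil, dendritic cell, osteoclast and endothelial) were chosen with earlier results of these data known. Genes named were the 3 of each list with the lowest p among those called, the JAK kinases, Irf9, Usp18, Socs1, Socs3 and Cish, the 3 most similar genes and the nearest protein-coding neighbours of each member. Other genes named were chosen after their values were seen. The values of 1 gene are not reported here. Older symbols were matched through RefSeq. Alternatives were other pseudocounts, filters, scalings and variances, the replicate block, summed rows and each library left out.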

Additional observations from a re-analysis of the deposited data

How the results depend on the processing

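In all 18 alternatives Stat2 and Stat3 stayed lower with an adjusted p under 0.05, with log2 fold changes from -2.23 to -2.02 and from -0.58 to -0.39, and so did Stat2 as the only altered member. Stat5a passed with the variance not following a trend (0.20, adjusted p = 0.0392), with gene-wise variance (0.20, 0.0249) and without a filter on low values (0.20, 0.0427). The median ratio gave 0.30 for Stat5a, 0.21 for Stat5b and 0.20 for Stat6, and quantile normalization 0.36, 0.24 and 0.16. All had an adjusted p under 0.05 from limma, so that 5 members passed under either scaling. Of the 13249 genes tested, 2850 were higher with the median ratio and 3599 with quantile normalization. Over its 18 alternatives the adjusted p from limma of Stat5a ranged from 0.00409 to 0.388, that of Stat5b from 0.0132 to 0.722 and that of Stat6 from 0.0288 to 0.811. Stat4 turned to 0.0435 after quantile normalization and to 0.0411 without control replicate 3, ranged from -0.10 to 0.0411 with each library left out and had no value with a minimum of 1 RPKM. The called inhibitors of STAT signalling numbered 12, and 6 with scaling to Gapdh. With the replicate block, Stat2 had a log2 fold change of -2.13 (adjusted p = 3.63e-07 from limma) and Stat5a 0.20 (adjusted p = 0.0643), and the block changed no call of a member. The causes of these changes were not tested. The depth is an estimate, and at 6.4 to 29.0 reads a library only large changes of Stat4 could be seen.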

Other observations

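Marker lists of other cell types gave these values. Counts are at an adjusted p under 0.05 from limma, at which 29.8% of all genes tested were lower and 14.7% higher. With so few markers tested in each list, the counts are not read as a result about a cell type. Of 5 B cell markers, 1 was tested and higher, Cd79b, and the summed level was 0.406 to 0.963 RPKM in the controls and 0.967 to 1.34 RPKM in the siRNA libraries. Of 8 neutrophil markers, 3 were tested, 2 were higher and 1 was lower, with sums of 10.3 to 10.4 RPKM in the controls and 22.9 to 31.97 RPKM in the siRNA group. Of 7 dendritic cell markers, 2 were tested and 1 was higher, with sums of 7.31 to 9.03 RPKM and 9.49 to 10.5 RPKM. Of 6 osteoclast markers, 3 were tested and 2 were higher, with sums of 12.4 to 15.9 RPKM and 22.5 to 26.7 RPKM. Of 5 endothelial markers, 4 were tested, 2 were lower and 1 was higher, with sums of 2.42 to 2.88 RPKM and 1.35 to 1.46 RPKM. Of 12 T and NK cell markers, 2 were tested and 1 was higher, Cd4.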
